A study of Mus musculus with 49 samples.

Results

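The dentate gyrus granule cell layer was compared between rTg4510 mice and DN (double negative) littermates, 6 arrays against 6, out of 49 arrays in the series. The members were the arrays labelled as dentate gyrus of these genotypes, and all 22626 probe sets that are not array controls were compared. rTg4510 mice carry 2 transgenes, the tetracycline-controlled transactivator tTA under the Camk2a promoter, which is active in forebrain excitatory neurons, and a responder that tTA switches on to make human tau with the P301L mutation. DN mice carry neither, so tTA and tau differ together in this comparison, and 5 arrays of littermates with tTA alone are given beside it. All mice were females of 6.1 months, from crosses of a 129S6 tTA parent with an FVB/N tau parent, and these arrays came from mice not given doxycycline. The cell layers had been cut out by laser capture, and the amplified RNA of each mouse was read on 1 Affymetrix HT-MG-430A array. Nothing on this array reads the human tau transgene as such, so the genotype labels could not be checked against it. Levels are log2 values, so a difference of 1 is a 2-fold change.

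The dentate gyrus is the entry gate of the hippocampus. Its granule cells receive the perforant path from the entorhinal cortex and send mossy fibers to CA3, and they store opioid peptides and other peptides in dense-core vesicles. Tau is a microtubule protein of axons that forms tangles in several dementias, and in rTg4510 mice mutant tau builds up in forebrain neurons. Astrocytes and microglia, the glial cells that support neurons and clear debris, respond to many kinds of damage with well-known gene programs, Gfap in astrocytes and complement and lysosomal genes in microglia.

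The captured tissue held the markers of its label, with some material of other cells. Levels of different probe sets share no scale, so those below do not give the share of each cell type. Marker levels were not set against those of the same probe sets in CA1 or CA3. In DN mice the granule cell markers Calb1, Dsp and C1ql3 had mean levels of 10.29, 10.88 and 10.72, and Prox1, a homeobox factor that granule cells need throughout life, 7.98. C1ql3 does not set this tissue apart from CA1, where its rTg4510 minus DN difference was −3.60 on 1 probe set. Mean levels over the CA1 and CA3 pyramidal lists ran from 5.74 to 6.17 and from 5.11 to 6.05 in DN arrays. The hilar mossy cell markers Drd2 and Calb2 had means of 4.03 and 5.29. Astrocyte genes were read in the same arrays, Gja1 at 11.38 and Slc1a2 at 10.34. Of the choroid plexus markers, all 7 measured genes were below 5.03, the median level over probe sets, in both genotypes. In bulk tissue of this kind, fewer cells of a type and less RNA per cell cannot be told apart.

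Of the 22626 probe sets, 2005 (8.86%) differed between rTg4510 and DN mice at an adjusted p under 0.05 in limma, 928 higher and 1077 lower in rTg4510. At least a 2-fold difference was reached by 291 of them, 180 higher and 111 lower. Each gene was then read by its brightest probe set, which gave 542 genes higher (4.59%) and 619 lower (5.24%) of 11807. These shares are the background for each count of list genes below. The lists were chosen with earlier results of these data known, so a count above these shares is a description and not a test. The 6 and 6 arrays did not overlap for 1236 probe sets (5.46%), and 1066 of these passed the test. The median difference over all probe sets was 0.01.

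**Figure D1:**
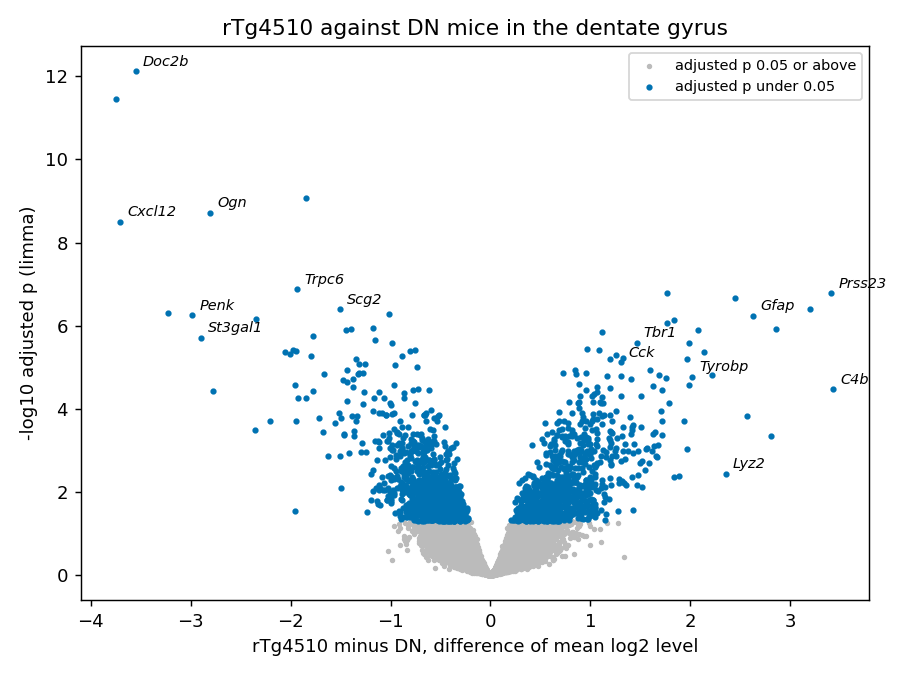
Each point is 1 of 22626 probe sets, with the rTg4510 minus DN difference of mean log2 level on the x axis and −log10 of the limma adjusted p on the y axis. The 2005 blue points have an adjusted p under 0.05, with Doc2b and Cxcl12 farthest to the left and C4b and Prss23 farthest to the right.

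Values that bear on all of these results belong beside them. Between tTA and DN mice 3769 probe sets (16.7%) differed, and between rTg4510 and tTA mice 177 (0.782%). Both comparisons share arrays with the main one, so their counts do not show which genes of the tTA arrays lay with rTg4510. The DN mice were numbered mouse4797 to mouse4886, and the rTg4510 and tTA mice mouse4535 to mouse4666. The labels name no date or batch for the arrays, so a cohort effect and the genotype cannot be told apart. The ratio of 3-prime to 5-prime Actb probe sets, a sign of RNA integrity and amplification, was −0.30 ± 0.15 in DN and −0.52 ± 0.19 in rTg4510 mice (log2, mean ± SD, n = 6 each; exact permutation test, two-sided, p = 0.0498), and for Gapdh it was 3.32 ± 0.32 and 3.0 ± 0.17 (exact permutation p = 0.0411, both 0.0498 after adjustment). In the 5 tTA arrays the Actb and Gapdh ratios were −0.61 ± 0.12 and 2.95 ± 0.39, nearer to rTg4510 than to DN. Fitting the Actb ratio beside genotype left 1021 calls, and fitting the Gapdh ratio, tried after the data were seen, left 1492. The array of rTg4510 mouse4621 read low for several glial genes; without it 1961 probe sets were called.

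The deepest falls were those of Doc2b and Cxcl12. Doc2b, a calcium sensor of vesicle release, was read by 2 probe sets. On the one with the larger difference the DN arrays had levels from 6.69 to 6.999 (median 6.89) and the rTg4510 arrays from 2.96 to 3.39 (median 3.10), a difference of −3.74 ± 0.13 (SE), or 13.4-fold (adjusted p = 3.47e-12). The groups were far apart, and the rTg4510 arrays lay among the dim probe sets. The other probe set fell by 3.55. In tTA mice the difference from DN was −3.34, and rTg4510 differed from tTA by −0.40 (adjusted p = 0.15).

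Cxcl12, the chemokine that guides granule cell precursors to their layer, had levels from 8.33 to 8.63 (median 8.44) in DN and from 4.03 to 5.46 (median 4.66) in rTg4510 mice. No array of one genotype came near the other, and the difference was −3.71 ± 0.20 (adjusted p = 3.13e-09). A second Cxcl12 probe set went the other way, with means of 5.98 in DN and 6.69 in rTg4510 mice (difference 0.71, adjusted p = 0.0218). The probe sets moved in opposite directions, and the cause was not tested. St3gal1, a sialyltransferase, ran from 7.12 to 8.48 (median 7.42) in DN and from 3.72 to 5.35 (median 4.79) in rTg4510 mice, again without overlap, and fell by 2.90 (adjusted p = 1.93e-06). Other deep falls without overlap were those of Ntng1, a netrin-like adhesion protein, by 2.35, Rbp4, a retinol carrier, by 2.34, Rprm, a p53 target that halts the cell cycle, by 2.06, and Dsg2, a desmosomal cadherin, by 2.01. Dsg2 fell on all 6 of its probe sets.

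Opioid and related peptide genes were among those that fell. Penk, the enkephalin precursor, had levels from 8.12 to 8.64 (median 8.43) in DN and from 4.63 to 6.37 (median 5.41) in rTg4510 mice. Every rTg4510 array was below every DN array, with a difference of −2.98 ± 0.24, 7.91-fold (adjusted p = 5.51e-07). Pdyn, the dynorphin precursor of mossy fibers, ran from 6.17 to 6.66 (median 6.59) in DN and from 4.25 to 5.02 (median 4.78) in rTg4510 mice and fell by 1.77 (adjusted p = 1.76e-06). Scg2, a granin of dense-core vesicles, ran from 9.19 to 9.49 in DN (median 9.35) and from 7.42 to 8.12 (median 7.89) in rTg4510 mice and fell by 1.51 (adjusted p = 4.03e-07). The receptor genes Npy2r, Oprd1 and Npy1r fell by 1.95, 1.12 and 0.96.

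Other peptide genes went up. Cck, made by interneurons and some pyramidal cells, had levels from 7.85 to 8.59 (median 8.07) in DN and from 9.06 to 9.65 (median 9.51) in rTg4510 mice. These groups did not overlap, and Cck rose by 1.31 ± 0.13 (adjusted p = 7.45e-06). Npy, a peptide of hilar interneurons that granule cells make after seizures, ran from 6.33 to 7.57 (median 7.001) in DN and from 7.41 to 8.70 (median 7.89) in rTg4510 mice. The ranges overlapped slightly, and Npy rose by 0.99 ± 0.20 (adjusted p = 0.00481). For Npy the tTA arrays lay with DN, a tTA minus DN difference of 0.13 (adjusted p = 0.73), while rTg4510 minus tTA was 0.87 (adjusted p = 0.060). Over the 19 neuropeptide genes measured, 2 were higher and 6 lower, beside 4.59% higher and 5.24% lower over all genes. Their median difference was 0.08. In tTA mice 2 of these genes were higher and 8 lower than in DN, and none was called between rTg4510 and tTA mice.

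**Figure D2:**
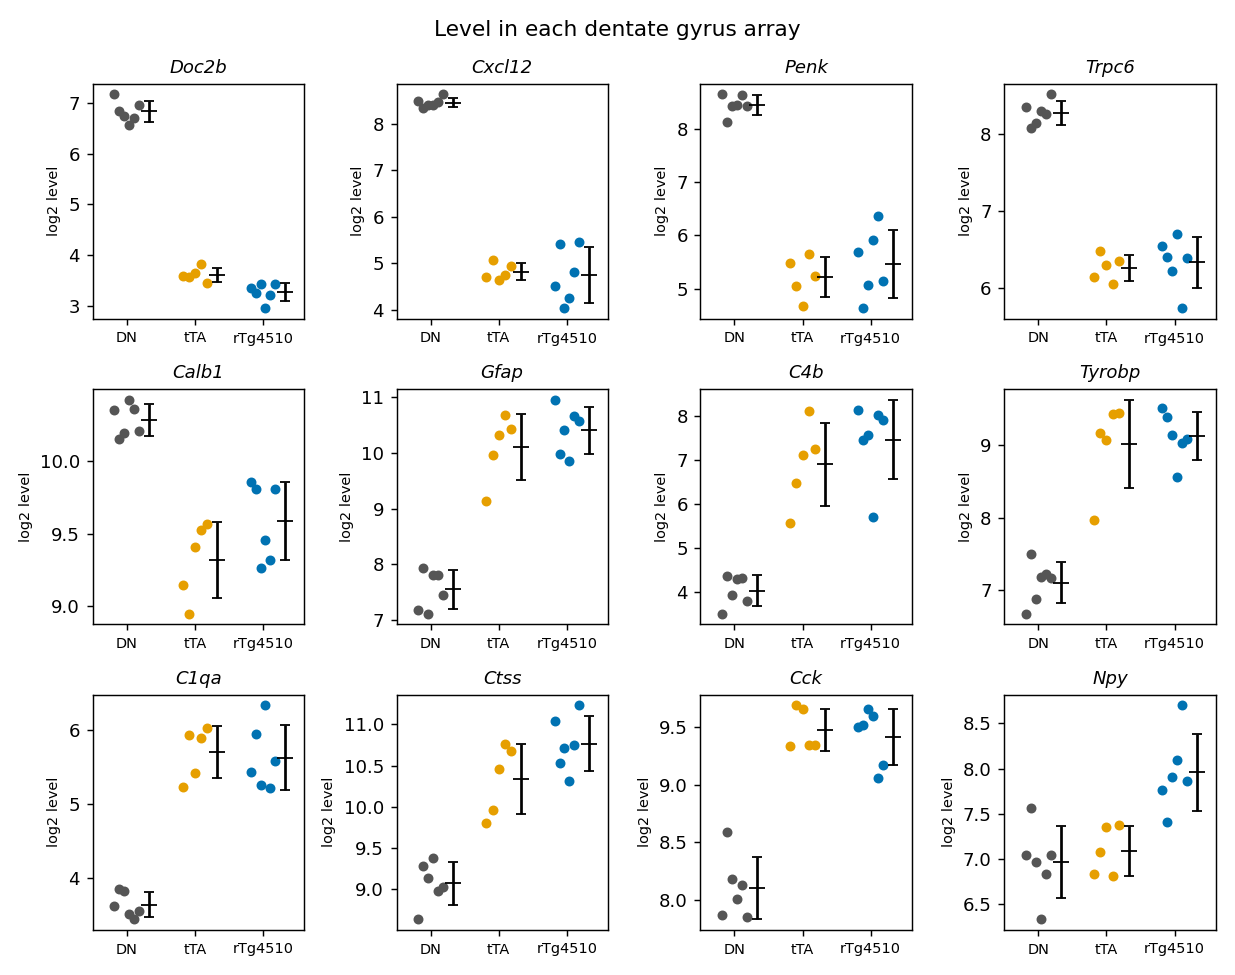
Log2 level of 12 genes in each dentate gyrus array (1 probe set a gene), by genotype: 6 DN, 5 tTA and 6 rTg4510 arrays as points, with the mean and SD as black marks; each panel has its own y axis, not starting at 0. In most panels the tTA and rTg4510 points lie together and apart from DN; for Npy the tTA points lie with DN.

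Granule cell markers fell in part. Of the 14 measured genes of this list 6 were lower and 1 was higher, and the median difference was −0.68, against 0.01 over all probe sets. In tTA mice 8 of the 14 were lower than in DN and 1 higher, with a median difference of −0.74. None of the 14 was called between rTg4510 and tTA mice. Trpc6, a cation channel, had levels from 8.07 to 8.51 (median 8.27) in DN and from 5.74 to 6.70 (median 6.39) in rTg4510 mice. The groups did not overlap, and Trpc6 fell by 1.94 ± 0.13 (adjusted p = 1.32e-07). C1ql3, a secreted synapse organizer, fell by 1.47, the small GTPase gene Rasl10a by 1.45, Smad3, a transducer of TGF-beta signals, by 0.95, and Pitpnm2 by 0.66.

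Calb1, the calcium buffer of mature granule cells, ran from 10.15 to 10.43 (median 10.29) in DN and from 9.26 to 9.86 (median 9.64) in rTg4510 mice. It fell by 0.70 ± 0.13 (adjusted p = 0.0019), with no overlap. In the fit over 49 arrays with the mouse as a block this call was lost (adjusted p = 0.329). Prox1 ran from 7.33 to 8.26 (median 8.08) in DN and from 6.17 to 7.47 (median 7.13) in rTg4510 mice, which overlapped, and its difference of −0.96 did not pass (adjusted p = 0.068). It passed in several other settings, among them the fit of the 12 arrays alone (adjusted p = 0.0168), array weights (0.0206), 1 variance a genotype (0.0351) and leaving out the array of tTA mouse4592 (0.0178). In most of the 30 other settings Prox1 did not pass, with an adjusted p of up to 0.377. Dsp, the desmosomal plaque protein that marks granule cells, had a difference of −0.15 (adjusted p = 0.53). Tdo2, the tryptophan-degrading enzyme that is also a marker of these cells, was the member that rose, by 1.21 (adjusted p = 0.000679). Of the 18 genes of adult neurogenesis measured, Sox11, a factor of immature neurons, fell by 0.66 (adjusted p = 0.0331), a call that was lost with either RNA covariate. The other 17 did not pass.

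Genes of neuronal signaling moved both ways. Among potassium channels 4 of 32 were higher and 3 lower, beside 4.59% higher and 5.24% lower over all genes. Kcnk2, a leak channel, ran from 7.04 to 7.66 in DN and from 8.46 to 8.96 in rTg4510 mice and rose by 1.33 (adjusted p = 6.06e-06), while Kcnip4 and Kcnc4 fell by 1.08 and 0.93. With the Actb covariate 2 potassium channel genes were higher and 2 lower. Of 21 genes listed for sodium, calcium and HCN channels and accessory proteins, 6 were lower and none higher. The calcium channel genes Cacna1d and Cacna1e fell by 0.71 and 0.66, calls that were lost with either RNA covariate. The accessory genes Cacng3 and Fgf14 fell by 1.03 and 0.73. With the Gapdh covariate 3 of the 21 genes were lower. Fgf14 is a partner of sodium channels and the gene into which the tau transgene is known to have inserted. Its levels ran from 9.06 to 9.37 (median 9.15) in DN and from 8.33 to 8.59 (median 8.46) in rTg4510 mice without overlap (adjusted p = 3.41e-05), and in tTA mice, which lack that insertion, it was also below DN, by 0.50 (adjusted p = 0.0011).

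At synapses, 7 of 24 postsynaptic signaling genes were lower and 4 higher, and 2 of 26 presynaptic genes were lower, beside 5.24% lower and 4.59% higher over all genes. With the Actb covariate 4 postsynaptic genes were lower. Dlg3, a scaffold of glutamate receptors, fell by 0.63 and Synpo, of the spine apparatus, by 0.68, while Camk4, a nuclear calcium kinase, rose by 0.98. Of the glutamate receptor genes 2 of 15 fell, Grik2 by 0.85 and Gria2 by 0.35, and of the GABA receptor genes 1 of 12, Gabra2 by 0.37. The presynaptic and GABA receptor counts were near the share over all genes. The calls of Gria2 and Gabra2 were lost with the Actb covariate, and 1 glutamate receptor gene was called without DN mouse4797, mouse4825 or mouse4883 or rTg4510 mouse4549, mouse4621 or mouse4666. Of 33 axon guidance and adhesion genes 8 were lower and 2 higher, with falls of Unc5c by 1.12 and Efnb2 by 1.11 and a rise of Sema3c by 1.26. With the Actb covariate 5 of them were lower.

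Activity-related genes moved both ways. Of 29 immediate early genes 5 were higher and 3 lower, beside 4.59% higher and 5.24% lower over all genes. The 5 became 2 without DN mouse4797, DN mouse4883 or rTg4510 mouse4666 and with the Actb covariate, and 3 with the Gapdh covariate and without DN mouse4806, DN mouse4825, rTg4510 mouse4600 or rTg4510 mouse4621. Fos ran from 4.06 to 5.28 (median 4.32) in DN and from 4.68 to 6.84 (median 5.41) in rTg4510 mice. These ranges overlapped, and its rise of 1.05 (adjusted p = 0.0283) was lost with either RNA covariate. Inhba, an activin subunit that neuronal activity induces, rose by 0.77 (adjusted p = 0.00759), with a tTA minus DN difference of 0.11. None of the immediate early genes, nor of the neurotrophin and growth factor genes, was called between rTg4510 and tTA mice. Dusp1, a MAP kinase phosphatase, rose by 0.79, and Jun and the synaptic pentraxin Nptx2 fell by 0.54 and 0.78. Arc had a difference of 0.19 (adjusted p = 0.69), with all genotype means among the dim probe sets, and Bdnf one of −0.36 (adjusted p = 0.47). Tbr1, a transcription factor of glutamatergic neurons, ran from 8.36 to 9.24 (median 9.02) in DN and from 10.20 to 10.65 (median 10.38) in rTg4510 mice, fully apart, and rose by 1.46 (adjusted p = 2.55e-06).

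Astrocyte genes rose together. Of 19 measured, 14 were higher and none lower, with a median difference of 0.85. In tTA mice 16 of the 19 were higher than in DN and 1 lower, with a median difference of 0.98. None of the 19 was called between rTg4510 and tTA mice. Gfap, the filament protein of reactive astrocytes, had levels from 7.11 to 7.93 (median 7.63) in DN and from 9.85 to 10.95 (median 10.49) in rTg4510 mice. The arrays were well apart, and the difference was 2.86 ± 0.24, 7.25-fold (adjusted p = 1.19e-06); its second probe set rose by 2.63. The water channel gene Aqp4 rose by 1.21, S100b by 1.07, Sox9 by 1.07 and Ntsr2 by 1.11. With the Actb covariate 8 astrocyte genes were called higher, and with the Gapdh covariate 13. Of 22 reactive astrocyte genes 4 were higher, among them Vim by 1.61 and the oncostatin M receptor gene Osmr by 1.84, and 16 of the 22 were dim in both genotypes.

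Microglial genes rose as well. Of 25 measured, 14 were higher and none lower, with a median difference of 0.998. In tTA mice 15 of the 25 were higher than in DN and none lower, with a median difference of 0.97. None of the 25 was called between rTg4510 and tTA mice. Tyrobp, the adaptor of TREM2, ran from 6.68 to 7.49 (median 7.17) in DN and from 8.56 to 9.51 (median 9.12) in rTg4510 mice, without overlap, and rose by 2.02 ± 0.22 (adjusted p = 1.68e-05). The lysosomal protease gene Ctss ran from 8.64 to 9.38 (median 9.09) and from 10.31 to 11.23 (median 10.74) and rose by 1.69 (adjusted p = 1.53e-05). Mpeg1, a pore-forming protein of macrophages, rose by 2.21, Lyz2 by 2.36 and Aif1, which encodes Iba1, by 1.20. The Aif1 call was lost with the Actb covariate. On anti-log values, the study's least significant difference test lost the calls of Lyz2 and Aif1 (adjusted p = 0.0504 and 0.056).

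Other microglial markers did not pass. P2ry12, a purine receptor of resting microglia, ran from 6.29 to 6.86 (median 6.66) in DN and from 6.06 to 6.96 (median 6.60) in rTg4510 mice, nearly the same span, with a difference of −0.03 ± 0.16 (adjusted p = 0.94). Cx3cr1 had a difference of 0.87 (adjusted p = 0.14), Csf1r of 0.62 (adjusted p = 0.067), and Trem2, dim in both genotypes, of 0.22 (adjusted p = 0.18). Of 23 genes of activated microglia 10 were higher, including Ccl6 by 1.35, Cd9 by 1.07 and Cd52 by 0.94. Of the genes chosen for their part in the study, Itgb2, Cd68 and Itgax rose by 1.20, 0.86 and 0.71, and Cd14 had a difference of 0.44 (adjusted p = 0.11), which passed with the mouse as a block over 49 arrays (adjusted p = 0.0284). The calls of Ccl6, Cd68 and Itgax were lost with the study's least significant difference test on anti-log values (adjusted p = 0.0875, 0.0851 and 0.0931).

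Complement genes were higher by the same test. C4b, a central component of the classical pathway, ran from 3.50 to 4.36 (median 4.11) in DN and from 5.70 to 8.13 (median 7.74) in rTg4510 mice. The lowest rTg4510 array, mouse4621, was still above every DN array, and C4b rose by 3.43 ± 0.40, 10.8-fold (adjusted p = 3.33e-05). The 3 chains of C1q, which starts that pathway, rose by 1.99 (C1qa), 1.76 (C1qb) and 1.97 (C1qc). C1qa ran from 3.44 to 3.85 (median 3.58) in DN and from 5.21 to 6.33 (median 5.50) in rTg4510 mice, again apart. Of 20 complement genes measured 8 were higher and none lower, and 13 were dim in both genotypes. In tTA mice 7 of the 20 were higher than in DN and none lower, and none was called between rTg4510 and tTA mice.

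Lysosomal genes rose in number too, 12 of 28 with none lower and a median difference of 0.39. Besides Ctss these included Ctsc, which rose by 1.495, Ctsh by 1.48 and Man2b1 by 1.34, a mannosidase whose tTA minus DN difference was 0.30 (adjusted p = 0.54). In tTA mice 11 of the 28 were higher than in DN and 2 lower. None of the 28, Man2b1 included, was called between rTg4510 and tTA mice. Npc2, a cholesterol carrier of lysosomes, rose by 0.97 and Ctsd by 0.93. Of 23 MHC and interferon genes 4 were higher, among them Cd74, the invariant chain, by 1.67, Ifitm3 by 1.26 and H2-K1 by 1.19, and with the Actb covariate 2 were. H2-K1 rose on 1 of its 4 probe sets, and the H2 genes are near-identical copies that differ between mouse strains, so their signals are uncertain.

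**Figure D3:**
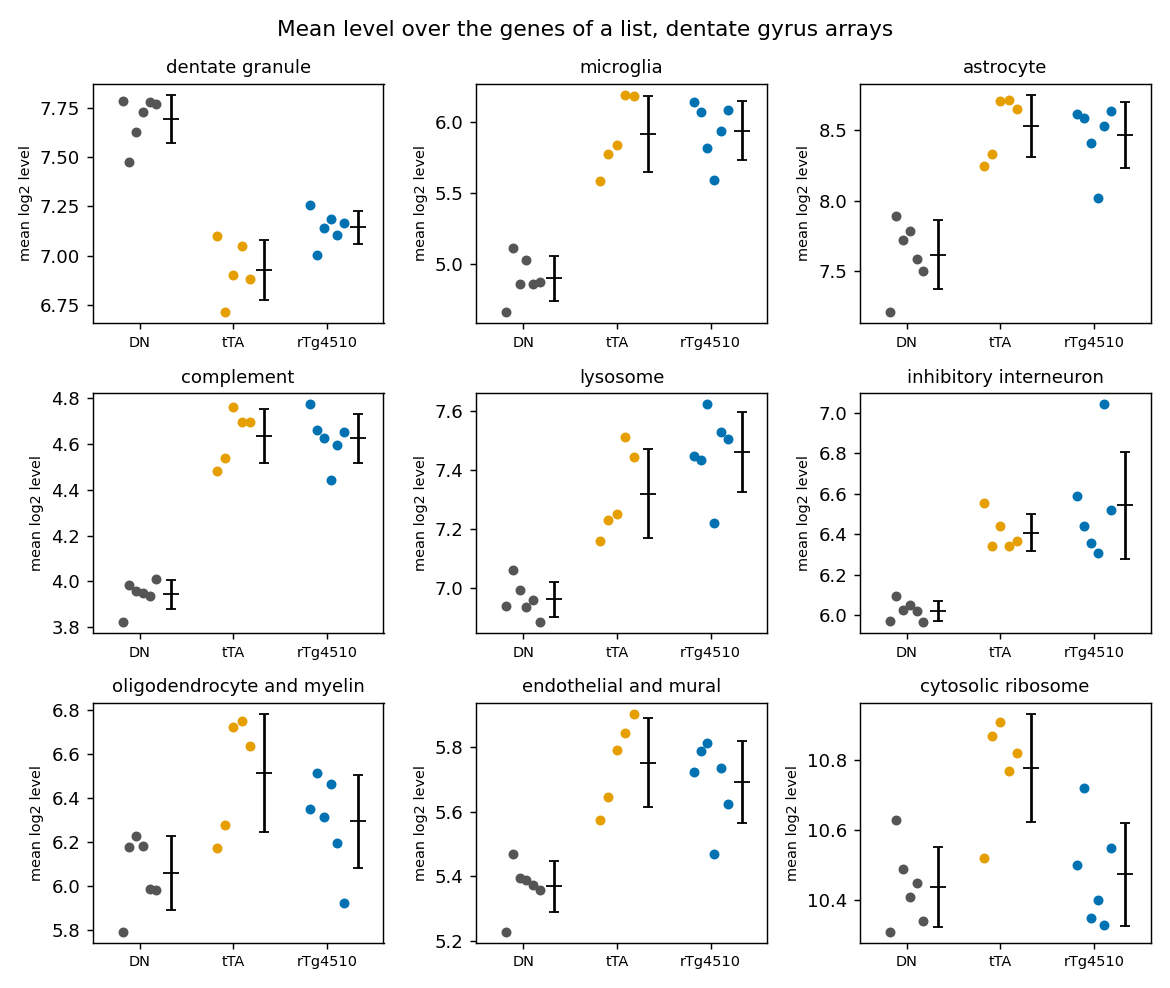
Mean log2 level over the genes of 9 lists in each dentate gyrus array (points; 6 DN, 5 tTA, 6 rTg4510), with the mean and SD in black; y axes do not start at 0. The microglia mean ran from 4.66 to 5.12 in DN and from 5.59 to 6.14 in rTg4510 mice, and the dentate granule mean from 7.47 to 7.78 and from 7.002 to 7.26.

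Genes of other cell types were called too, beside 4.59% higher and 5.24% lower over all genes. Of 18 interneuron genes, which had a median difference of 0.46, 4 were higher: Cck, Reln by 1.02, Dlx1 by 0.63 and Gad1 by 0.38, while Gad2 had a difference of 0.56 (adjusted p = 0.084). With the mouse as a block over 49 arrays Gad1 was lost (adjusted p = 0.0516) and Gad2 passed (adjusted p = 0.0443). The mean level over the list ran from 5.96 to 6.10 in DN and from 6.31 to 7.04 in rTg4510 mice, without overlap, and without rTg4510 mouse4535 2 of its genes were called. Of 21 endothelial and mural genes 5 were higher, including Cldn5 of the blood-brain barrier by 0.82 and the pericyte gene Rgs5 by 0.79, and of 16 oligodendrocyte genes 3. With the Actb covariate the counts were 2 endothelial and mural genes and 1 oligodendrocyte gene, and without DN mouse4797 1 oligodendrocyte gene. In the list of meninges and fibroblasts 2 of 13 were lower, Ogn and Lum, both small proteoglycans. Ogn ran from 6.12 to 7.36 (median 6.75) in DN and from 3.02 to 4.09 (median 3.60) in rTg4510 mice, far apart, and fell by 3.22 (adjusted p = 4.86e-07), while Dcn and Col1a1 of the same list differed by 0.07 and 0.17 (adjusted p = 0.84 and 0.48). Of 5 CA1 pyramidal cell genes 2 were lower, the transcription factor gene Pou3f1 by 2.77 and Itpka, an inositol phosphate kinase of spines, by 0.97. The mean level over the list ran from 5.74 to 6.17 in DN and from 4.98 to 5.33 in rTg4510 mice, without overlap. That mean follows mainly these 2 genes, and the median difference of the list was −0.26. None of the 7 mossy cell, 7 choroid plexus, 7 CA3 or 3 red blood cell genes passed. What the glial share of the cut tissue adds to any of these counts was not tested. Without rTg4510 mouse4621 the counts were 15 astrocyte, 14 microglial, 8 complement and 14 lysosomal genes higher and 8 dentate granule genes lower.

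Beyond the lists, Prss23, a secreted serine protease, ran from 4.63 to 5.81 (median 4.78) in DN and from 7.42 to 8.93 (median 8.43) in rTg4510 mice. The groups were apart, and Prss23 rose by 3.41 ± 0.24, 10.6-fold (adjusted p = 1.65e-07). Car4, a carbonic anhydrase of capillaries, ran from 6.06 to 6.47 (median 6.27) and from 7.53 to 8.65 (median 8.15), also without overlap, and rose by 1.83 (adjusted p = 7.41e-07). The surface glycoprotein gene Cd24a rose by 1.99, the troponin gene Tnnt2 by 1.93, the proteoglycan gene Bgn by 1.78 and the urea transporter gene Slc14a1 by 1.72. Among further falls were the integrin gene Itga8 by 1.95, the carbonic anhydrase gene Car12 by 1.93, Ptgs2, which encodes the inducible cyclooxygenase, by 1.79, and Grp, gastrin-releasing peptide, by 1.68.

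Of the housekeeping groups, none of 60 cytosolic ribosome genes passed, with a median difference of 0.02, although 34 were higher in tTA than in DN mice and 9 lower in rTg4510 than in tTA mice. Of 68 oxidative phosphorylation genes 6 were higher (median difference 0.07), none of which passed with either RNA covariate; 2 or 3 were higher when 1 of DN mouse4797, mouse4825, mouse4866, mouse4883 and mouse4886 or rTg4510 mouse4535, mouse4549, mouse4621 and mouse4666 was left out. Of 36 proteasome genes 5 were lower and 1 higher (median difference −0.14, beside 5.24% lower over all genes), with 1 lower under the Actb covariate and 8 without tTA mouse4570. Among them Psma5, a subunit of the core particle, fell by 0.57 (adjusted p = 0.000599) and was also below tTA, by 0.48 (adjusted p = 0.030). The chaperone gene Hspa5 fell by 0.66, and the small heat shock genes Hspb8 and Cryab rose by 1.15 and 0.62. The other 2 Cryab probe sets did not pass (differences 0.43 and 0.05, adjusted p = 0.14 and 0.94). The Hspb8 call was lost with either RNA covariate and the Cryab call with the Actb covariate. Of 30 genes for tau kinases, phosphatases and microtubule proteins 3 were lower and 1 higher, beside 5.24% lower and 4.59% higher over all genes. With either RNA covariate 1 was lower and none higher, and 1 was lower without DN mouse4797, mouse4866 or mouse4883 or rTg4510 mouse4535 or mouse4666. Mouse Mapt itself had a difference of 0.13 ± 0.16 (adjusted p = 0.68), and Camk2a, whose promoter drives tTA, of 0.09 (adjusted p = 0.72).

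Between rTg4510 and tTA mice 50 genes were higher (0.423%) and 44 lower (0.373%), and between tTA and DN mice 942 (7.98%) and 1121 (9.49%). A few genes that passed both against DN and against tTA were picked after their values were seen. Parvg, an actin-binding parvin of blood cells, had means of 5.70 in DN, 5.65 in tTA and 4.08 in rTg4510 mice, differences of −1.62 from DN (adjusted p = 0.0014) and −1.57 from tTA (adjusted p = 0.0286). Il1rapl2 had means of 3.96, 3.69 and 4.85 in the same order, 0.89 above DN (adjusted p = 0.000915) and 1.16 above tTA (adjusted p = 0.00594). In both genes the tTA mean lay with DN. All genotype means of Il1rapl2, and the rTg4510 mean of Parvg, were dim (below 5.03).

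The same comparison was set against CA1 and CA3 in a fit over 49 arrays, with the mouse as a random block. The rTg4510 minus DN difference was not the same in DG and CA1 for 1290 probe sets (5.70%), 731 above and 559 below, and in DG and CA3 for 268 (1.18%), 115 above and 153 below. On 1 of its probe sets Cxcl12 fell by 3.71 in DG, with differences of −0.08 in CA1 and 0.07 in CA3 (adjusted p of the difference between subfields 1.3e-09 and 5.5e-10). The second Cxcl12 probe set had differences of 0.71, 0.64 and 0.38 in DG, CA1 and CA3. Its gap did not pass against either field (adjusted p = 0.94 and 0.76). Ogn and Dsg2 had the pattern of the first Cxcl12 probe set, with differences within 0.14 of 0 in both other fields. Doc2b fell by about as much in CA1, −3.79 against −3.74 in DG, and had a difference of 0.01 in CA3. Spata13, Trpc6 and Rflnb fell in DG and had differences of 0.73, 0.79 and 1.22 in CA1. Jun was lower in DG by 0.54, with differences of 1.21 in CA1 and 1.64 in CA3.

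On the other side, Cck rose by 1.31 in DG, with differences of −0.13 in CA1 and 0.08 in CA3, and Dkk3, a secreted Wnt modulator, rose by 1.04 in DG against −1.52 and −0.58. Igfbp4, a binding protein of insulin-like growth factors, rose by 1.97 against −0.18 and 0.35. Several genes with the largest gap to CA1 did not pass in DG itself: Egfl6, Stac and Sema3e had DG differences of −0.01, −0.08 and −0.08 and CA1 differences of −2.72, −2.74 and −2.73. Of the glial lists, the DG difference was below that of CA1 for 10 of 16 oligodendrocyte genes (median gap −1.14), 7 of 23 genes of activated microglia, 4 of 22 of reactive astrocytes, 3 of 25 of microglia and 3 of 19 of astrocytes, and above it for none. Over all 11807 genes it was below for 322 and above for 403. Against CA3, 1 microglial gene was below, P2ry12, and 1 astrocyte gene, Ntsr2, and 1 reactive astrocyte gene, Cd109, were above. Apoe and C1qb, which passed against CA1, had DG differences of 0.85 and 1.76 against 1.70 and 2.90 in CA1. The gap did not pass for Gfap, C4b, Tyrobp or C1qa in either field.

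**Figure D4:**
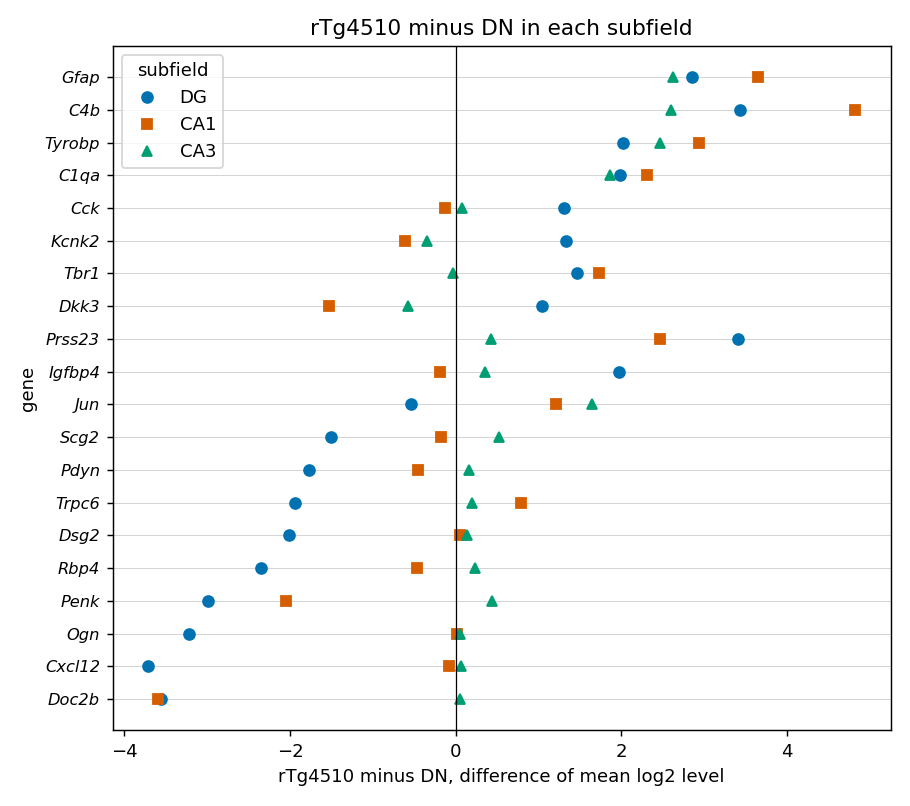
Difference of mean log2 level, rTg4510 minus DN (x axis), of 20 genes (y axis) in the dentate gyrus (circles), CA1 (squares) and CA3 (triangles), from the fit over 49 arrays. Gfap, C4b, Tyrobp and C1qa lie to the right of 0 in every subfield, while the circle of Cxcl12 lies at −3.71 with the other symbols near 0. The second Cxcl12 probe set, which rose in DG, is not shown.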

How the data were processed

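The deposited table held log2 expression values made by the authors with RMA, which subtracts background, puts the arrays on a common distribution and sums each probe set, so it hides a shift of all transcripts and shrinks the changes of dim probe sets. Levels of different probe sets share no length scale. The values lay between 1.944 and 13.518, each array's median between 4.953 and 5.066, and they were used as deposited; of 22716 rows, 90 controls were left out. Of the rest 18003 had 1 gene symbol, 287 several and 4336 stayed unnamed; by Entrez ID 17977 matched the RefSeq gene table (GRCm38.p6). Precision here is set by the number of arrays, not by a depth. The mouse is the replicate, and no 2 arrays were identical (0 pairs).

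limma 3.58.1 in R 4.3.3 fitted 1 model over the 17 dentate gyrus arrays with 3 genotypes; p-values were adjusted by Benjamini-Hochberg over 22626 probe sets, and calls are adjusted p under 0.05, with no fold limit. The difference between subfields used 49 arrays, 9 groups and the mouse as a random block (correlation 0.117). Same-mouse arrays correlated in their deviations with a median r of 0.124 over 32 pairs, from −0.148 to 0.323; the mouse number in the titles gives the pairing. Dim means below 5.03. The fits were tested on simulated data with 200 changed probe sets.

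The 42 gene lists (861 of 1074 genes measured, 1 brightest probe set a gene) and the members were chosen with earlier results of these data known. Named genes were the 20 largest called differences each way, up to 4 called members a list, genes of the study's design, and the 6 largest subfield differences each way, besides list members given as counts or examples. Dcx had no listed probe set. The study's least significant difference test, other priors, weights, normalizations, an RNA covariate and arrays left out were tried as alternatives. The Gapdh covariate was added after the data were seen. Promoters of several named genes were searched for CRE and AP-1 letters; the few matches are not reported.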

Additional observations from a re-analysis of the deposited data

Results flagged for a closer look

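Several values stood apart from the other arrays of their group by Dixon's test, applied to 330 groups of 6 arrays. By chance alone about 1 in 20 groups is flagged, and the 16 values found are near that share. In rTg4510 mice the array of mouse4621 was far below the others for C4b (5.70), Cd9 (4.67), Clu (11.22), Ctsc (5.08), Srgn (5.199) and Vim (8.59), and the array of mouse4653 for Map2 (9.58). In DN mice Apoe was high (7.95) and Cacna1e (7.57) and Osmr (2.81) were low in mouse4806, Prss23 (5.81) and Reln (7.41) were high and Mapt (5.78) was low in mouse4866, Camk2a (11.04) and Tbr1 (8.36) were low in mouse4886, and Phlda3 (4.81) was high in mouse4883.

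For 90 results the rTg4510 minus DN difference was not the same in 2 subfields, by the interaction term of the fit over 49 arrays. Each value below is the DG difference minus that of the other field, on the log2 scale. Cxcl12 is given by 1 probe set, and its second probe set did not pass against either field. Against CA1 the DG difference was above for C1ql3 (2.78), Htr5b (2.73), Ccn3 (2.73), Egfl6 (2.71), Stac (2.66), Sema3e (2.65), Dkk3 (2.56), Tnnt2 (2.40), Igfbp4 (2.16 and 1.85 on 2 probe sets), Kcnk2 (1.94), Cck (1.44), Tdo2 (1.14), Nptx1 (1.11), Bhlhe40 (1.10), Itpka (0.95), Cacng3 (0.92), Gria2 (0.64), Camk2a (0.61) and Map2 (0.59). It was below that of CA1 for Cxcl12 (−3.63), Ogn (−3.24), Igfbp5 (−2.81), Trpc6 (−2.73), Rflnb (−2.66), Spata13 (−2.58), St3gal1 (−2.40), Bcl2l11 (−2.32), Lum (−2.13), Dsg2 (−2.06), Rbp4 (−1.88), Jun (−1.75), Ntng1 (−1.71), Rprm (−1.68), Kcnc4 (−1.51), Mobp (−1.41), Scg2 (−1.33), Pdyn (−1.31), Grp (−1.31), Pde7b (−1.28), Ptgs2 (−1.20), C1qb (−1.15), Cryab (−1.07), Apoe (−0.85), Cd52 (−0.79), Gad1 (−0.68) and Htr4 (−0.54).

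Against CA3 the DG difference was above for Prss23 (2.98), C1rb (1.71), Kcnk2 (1.68), Klhdc8a (1.66), Igfbp4 (1.62 and 1.42 on 2 probe sets), Dkk3 (1.61), Bgn (1.497), Tbr1 (1.49), Inhba (1.34), Cck (1.23), Camk4 (1.22), Ccdc80 (1.09) and Ntsr2 (0.82). It was below that of CA3 for Cxcl12 (−3.78), Doc2b (−3.75 and −3.60 on 2 probe sets), Penk (−3.42), Ogn (−3.28), St3gal1 (−2.84), Pou3f1 (−2.72), Rbp4 (−2.57), Spata13 (−2.57), Jun (−2.19), Itga8 (−2.18), Dsg2 (−2.15), Trpc6 (−2.14), Rprm (−2.11), Rflnb (−2.09), Scg2 (−2.04), Ntng1 (−1.98), Car12 (−1.96), Pdyn (−1.93), C1ql3 (−1.73), Lum (−1.72), Igfbp6 (−1.58), Pde7b (−1.49), Kcnc4 (−1.31), Ptgs2 (−1.25), Itpka (−1.23), Sox11 (−1.11), P2ry12 (−0.92) and Htr4 (−0.76).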

How the results depend on the processing

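The count of 2005 probe sets was within 1.5 times under all other settings but one: with the Actb ratio as a covariate it was 1021 (483 higher, 538 lower), and 117 list genes were called in place of 190. The other settings gave from 1492 (Gapdh ratio, added after the data were seen) to 2716 (array weights), with 1663 for the methods' least significant difference test as run here on the log2 scale and 1652 after taking the anti-log (638 higher, 1014 lower). Leaving out 1 array at a time gave 1369 to 2203 (639 to 1003 higher, 730 to 1208 lower; list genes 156 to 204), lowest without DN mouse4797. With the mouse as a replicate block over 49 arrays the count was 2323. For the difference from CA1, the fit with no replicate block gave 983 and leaving out arrays 1081 to 1406 (624 to 802 above, 449 to 604 below). For the difference from CA3, no replicate block gave 183 (68 above) and array weights 477 (210 above, 267 below), and leaving out arrays gave 197 to 289 (80 to 127 above, 117 to 162 below). The cause was not tested.

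Over the named genes 4590 values kept their direction and call, 296 lost the call, 12 gained it and 17 turned sign. With the mouse as a replicate block, Calb1, Gad1, Htr5b, Igf1, Mobp and Phlda3 lost the call (adjusted p 0.329, 0.0516, 0.211, 0.0674, 0.0708 and 0.0621) and Cd14 and Gad2 gained it. Called genes that lost the call with the Actb ratio included Adcy9, Aif1, Apoe, Fos, Dlx1, H2-D1, H2-K1, Hspb8, Itgax, Gria2, Gabra2, Gas5, Cryab, Olig1, Mobp and Sox11. With the least significant difference test on anti-log values, glial and immune genes that lost the call included Aif1, Apoe, Ccl6, Cd68, Cd74, Ctsh, H2-D1, H2-K1, Itgax, Lyz2 and Osmr. Their adjusted p ran from 0.0504 (Lyz2) to 0.201 (H2-D1). The sign turned for genes that were not called: P2ry12 to 0.0119 with quantile normalization again, Egfl6 to 0.0296 and Stac to 0.0305 with the Actb ratio, and Camk2a to −0.0211, Egfl6 to 0.0595 and Mapt to −0.0325 with the Gapdh ratio. With single arrays left out, Camk2a ran from −0.0086 to 0.14, Egfl6 from −0.0493 to 0.0407, P2ry12 from −0.107 to 0.0711 and Sema3e from −0.241 to 0.0579.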
